A study of Rattus norvegicus with 12 samples.

Results

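Intermediate filament genes were followed in ventricular cardiomyocytes of newborn rats that were stretched in culture. The 10 genes were the keratins Krt7, Krt8, Krt18 and Krt19, the muscle and mesenchymal filament genes Des, Vim, Nes and Synm, and the lamin genes Lmna and Lmnb1. They were chosen by name: every probe that carried 1 of these symbols in the scanner files was used, which gave 10 of 17479 named genes and 13 probes of 30367 on the array. Of these, 12 passed the filter on dim probes, which asked for a signal well above background on each of the 3 arrays of some group, as did 18997 probes in all. Each of the 10 genes kept at least 1 probe.

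The cells were neonatal rat ventricular cardiomyocytes, kept for 24 h in medium with 10% serum on flexible collagen-coated membranes. They were then either left unstretched as controls or stretched rhythmically along both axes, by 20%, for 2, 6 or 24 h. Total RNA of 3 cultures per group, described as biological replicates, was hybridised to 12 one-colour Agilent arrays. The labels do not say if the 3 cultures came from different isolations, so every error and p-value measures the spread between these cultures. All 3 stretch times were set against the same 3 control cultures, whose time in culture the labels do not name, so stretch and time in culture cannot be told apart. Levels are relative signals, which are processed intensities as multiples of the 75th percentile of the same array, and they were not compared between probes. Changes are log2 differences between group means with standard errors (SE) from limma, and a change is called at a Benjamini-Hochberg adjusted p below 0.05 over all tested probes.

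Intermediate filaments are rope-like polymers that give cells mechanical strength. Keratins assemble as pairs of a type I chain, such as keratin 18 or 19, and a type II chain, such as keratin 7 or 8, and in adult animals they are best known from simple epithelia. Desmin is the main cytoplasmic filament of heart muscle, where it ties the Z-discs to each other, to the nucleus and to the intercalated discs. Lamins form the meshwork under the inner nuclear membrane.

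No array had a saturated spot, and 64.7% to 70.64% of the 58717 spots of an array stood well above background. All 11 cardiomyocyte markers examined were detected. Their summed relative signal was 624 to 679 on the 24 h arrays, against 782 to 848 on the control arrays. Such a sum is weighted towards the probes with the highest signal. The arrays lay on 2 slides. Slide 1 held all control and 2 h arrays with replicates 1 and 2 of 6 h, while slide 2 held replicate 3 of 6 h with all 24 h arrays. The 24 h and control groups therefore never shared a slide, and only the 6 h group links them. With slide as a block, the slide difference thus comes from 1 array, replicate 3 of 6 h, set against replicates 1 and 2. Such values cannot tell the slide from that array. Values with slide as a block are given beside the calls they change. In bulk RNA, fewer cells of a type and less RNA per cell cannot be told apart.

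After 24 h of stretch 4 of the 10 genes were higher than in control (Krt18, Krt8, Des and Nes), 3 were lower (Krt7, Krt19 and Vim), and 3 were not called on their brighter probe (Synm, Lmna and Lmnb1). Of all tested probes 44.6% were called in this comparison, 14% higher and 30.5% lower, so a large share of called genes is the background here. The slide block left 3 members called (Krt18 higher, Krt7 and Krt19 lower) and 2180 probes. The balance depended on the scaling, with 6 members higher and 2 lower beside 8552 probes higher and 2098 lower under array medians, and 5 members higher and 1 lower beside 6211 probes higher and 656 lower under spike-ins. The groups did not overlap for 8 of the 10 genes, against 57.3% of all tested probes. The median log2 change of the 10 genes was 0.05, beside -0.095 for all tested probes. At 2 h, 2 genes were called (Krt18 and Nes, both higher), against 7.13% of all probes (2.39% higher and 4.74% lower), and 3 did not overlap with control, against 26.7%. The same 2 genes were called at 6 h, against 14% of all probes (4.02% higher and 10% lower), and 4 did not overlap, against 37%.

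Between stretch times, 1 gene was higher and 0 lower at 6 h than at 2 h, where 7.99% of all probes were called (2.65% higher, 5.34% lower), and 6 genes did not overlap, against 33.2%. At 24 h 3 genes were higher and 3 lower than at 6 h, where 21.6% of all probes were called (8.04% higher, 13.6% lower), and 7 did not overlap, against 43.4%. Against 2 h, 2 were higher and 3 lower at 24 h, where 45.7% of all probes were called (15.5% higher, 30.2% lower), and 6 did not overlap, against 56%. The limma F test over the 4 groups called 7 of the 10 genes, against 48.4% of all probes.

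**Figure D1:**
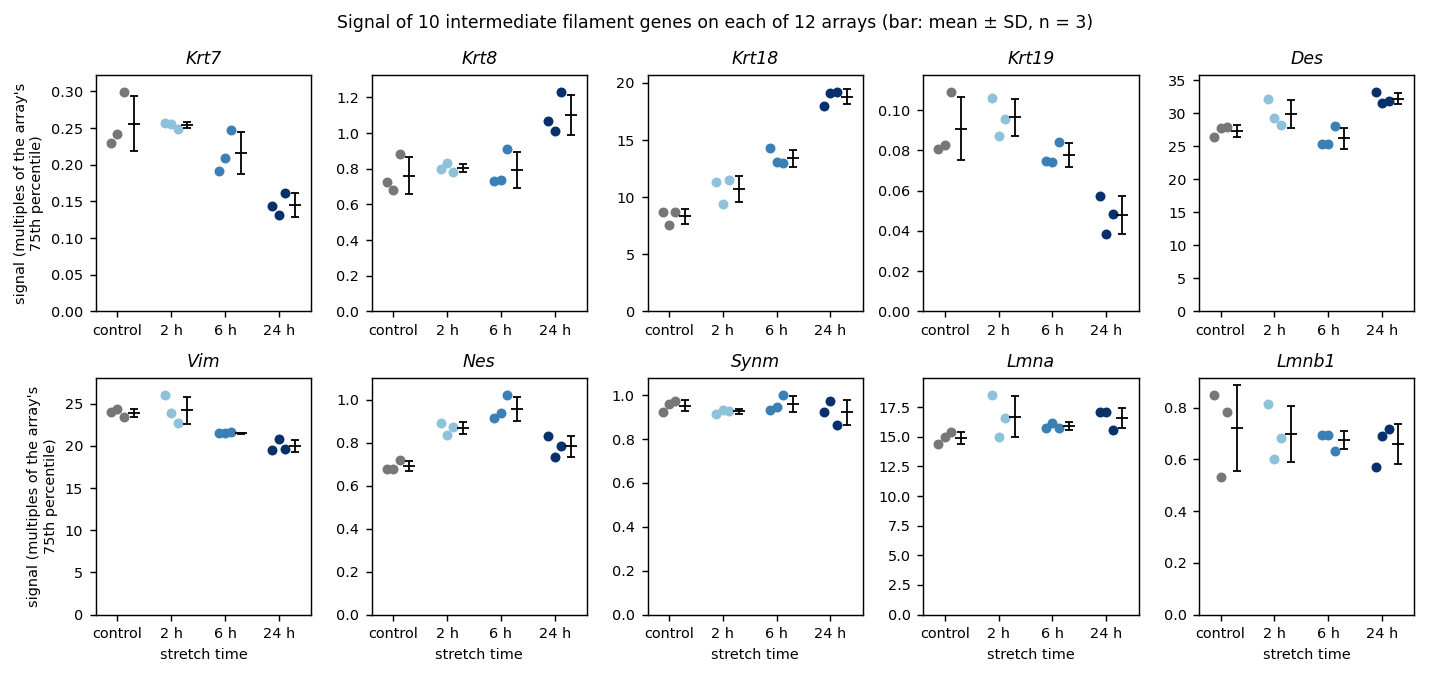
Relative signal (y axis, multiples of the 75th percentile of the array, from 0) of the brighter probe of each gene on every array, by stretch time (x axis). Points are arrays and bars are the mean and SD of 3 arrays. Krt18 stands higher at each later time, Krt7 and Krt19 stand low at 24 h, and Nes is highest at 6 h.

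Krt18 encodes keratin 18, the type I partner of keratin 8. Its probe is not placed on a chromosome in the array files. The relative signal was 8.69, 7.56 and 8.68 in control, 11.3, 9.43 and 11.5 at 2 h, 14.3, 13.1 and 13 at 6 h, and 18, 19.1 and 19.2 at 24 h. No array of a later time fell within the range of an earlier one. The log2 change against control was 0.37 ± 0.09 at 2 h (SE, n = 3 per group, limma adjusted p = 0.0298), 0.70 ± 0.09 at 6 h (limma adjusted p = 0.00129) and 1.18 ± 0.09 at 24 h (limma adjusted p = 4.47e-06). The mean thus stood 2.26-fold above control at 24 h, and 61 of the 18997 tested probes had a larger positive change. Each step between times was called, with 0.33 for 6 h over 2 h (limma adjusted p = 0.0431) and 0.48 for 24 h over 6 h (limma adjusted p = 0.00295). The 6 h and 24 h calls held in all alternatives tried, with slide as a block giving 1.25 at 24 h (limma adjusted p = 0.00197).

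The 2 h call was less firm. On slide 1 alone, which holds all arrays of both groups, the same change of 0.37 had a limma adjusted p of 0.0847. It was not called with spike-ins (0.54, limma adjusted p = 0.216), without the filter (adjusted p = 0.0803) or with only the arrays compared (adjusted p = 0.119). It was also lost without control replicate 2 (0.30, limma adjusted p = 0.104), without control replicate 3 (0.40, adjusted p = 0.0575), without 2 h replicate 1 (0.33, adjusted p = 0.0915) and without 2 h replicate 3 (0.32, adjusted p = 0.0908). The step from 2 h to 6 h was 0.35 with slide as a block (limma adjusted p = 0.0856). For this step that is the same fit as leaving out 6 h replicate 3. Leaving out single arrays gave limma adjusted p-values between 0.044 and 0.147. On slide 2 alone, with 1 array of 6 h, the step of 24 h over 6 h was 0.53 (limma adjusted p = 0.0839).

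Krt8 encodes keratin 8, the type II partner of keratin 18. The array files place its probe on rat build rn4 at chr7:140716967-140717949, and they do not say whether that is coding sequence or UTR. Relative signals were 0.723, 0.683 and 0.881 in control, 0.8, 0.831 and 0.782 at 2 h, 0.732, 0.738 and 0.911 at 6 h, and 1.07, 1.01 and 1.23 at 24 h. All 24 h arrays exceeded every other array, whereas control, 2 h and 6 h overlapped. The change at 24 h was 0.54 ± 0.11 (limma adjusted p = 0.00341), a 1.45-fold higher mean, and it was 0.98 with spike-in scaling and 0.81 with array medians. At 2 h it was 0.09 (95% interval -0.17 to 0.34) and at 6 h 0.06 (-0.19 to 0.31), and neither was called. With spike-in scaling the 6 h change was 0.57 and called (limma adjusted p = 0.0193). The probe has 10 spots per array.

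The 24 h call for Krt8 was lost with slide as a block. With slide as a block the change was 0.23 (limma adjusted p = 0.449), and on slide 2 alone 24 h over 6 h was 0.27 (limma adjusted p = 0.362) against 0.48 over all arrays (limma adjusted p = 0.0136). The 6 h array on slide 2 was also the highest of its group, at 0.911. The step of 24 h over 6 h was also lost without 6 h replicate 1 (0.42, limma adjusted p = 0.0535), 6 h replicate 2 (0.43, limma adjusted p = 0.0554) or 24 h replicate 3 (0.40, limma adjusted p = 0.0527).

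Among the 4 keratins of the set Krt8 and Krt18 stood higher at 24 h, with the Krt8 call lost under the slide block. Krt8 and Krt18 are neighbours in the RefSeq rat annotation, with 1 gene, LOC134479612, between them. Krt7, which was lower at 24 h, lies on the same chromosome, with 31 genes between it and Krt8. Whether position bears on these changes was not tested. Krt8 lies on the minus strand and Krt18 on the plus strand. The 250 bases before each annotated start, read on the gene's own strand from RefSeq build GRCr8, are shown so that the upstream regions of these neighbours can be compared. Krt8 covers chr7:135010340-135010589 and Krt18 covers chr7:135035918-135036167. Capitals mark matches on either strand to the GC box GGGCGG and to the AP-1 motif TGANTCA.
Krt8: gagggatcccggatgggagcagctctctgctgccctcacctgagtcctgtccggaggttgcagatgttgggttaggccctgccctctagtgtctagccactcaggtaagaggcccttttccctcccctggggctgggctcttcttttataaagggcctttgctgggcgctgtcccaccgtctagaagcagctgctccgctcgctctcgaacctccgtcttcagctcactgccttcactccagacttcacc
Krt18: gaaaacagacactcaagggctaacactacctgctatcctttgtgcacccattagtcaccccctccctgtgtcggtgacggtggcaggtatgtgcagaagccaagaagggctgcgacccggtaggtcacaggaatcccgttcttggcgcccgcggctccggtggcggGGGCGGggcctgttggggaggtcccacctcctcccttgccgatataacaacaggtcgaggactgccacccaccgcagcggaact
Krt18 had 1 GC box, starting 84 bases before the annotated start, and Krt8 had 0. This motif occurs in 32.4% of 27457 rat promoters of the same length. AP-1 matches were at 0 in both and at 0 in all 8 of the 10 genes with an entry, against 6.36% of all promoters. The TATA letters TATAAA, searched on both strands, were found in Krt8 as overlapping matches starting 106 and 104 bases before the start and not in Krt18, against 13.1% of all promoters. These are matches of letters in one window and show no binding.

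Krt7 and Krt19, which encode a type II and a type I keratin of simple and ductal epithelia, were lower at 24 h. The Krt7 probe is not placed on a chromosome in the array files. Krt7 gave relative signals of 0.229, 0.242 and 0.299 in control, 0.257, 0.256 and 0.249 at 2 h, 0.191, 0.209 and 0.247 at 6 h, and 0.143, 0.131 and 0.162 at 24 h. All 24 h arrays were below every other array. Krt7 fell by 0.82 ± 0.12 on the log2 scale at 24 h (limma adjusted p = 0.000395), to 0.568 of control. Its changes at 2 h (0.00, limma adjusted p = 0.987) and 6 h (-0.25, limma adjusted p = 0.202) were not called.

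Krt19, at rn4 chr10:89081437-89081496, gave 0.0808, 0.0827 and 0.109 in control, 0.106, 0.0874 and 0.0957 at 2 h, 0.0747, 0.0741 and 0.0844 at 6 h, and 0.0572, 0.0385 and 0.0485 at 24 h. Again the 24 h arrays lay below all others. Krt19 fell by 0.92 ± 0.15 at 24 h (limma adjusted p = 0.000771), to 0.527 of control. The changes at 2 h (0.10) and 6 h (-0.21) were not called, with limma adjusted p of 0.753 and 0.389. Both keratins were also lower at 24 h than at 6 h, with changes of -0.57 for Krt7 (limma adjusted p = 0.00764) and -0.71 for Krt19 (limma adjusted p = 0.00816).

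Both 24 h falls were kept with slide as a block, at -1.12 for Krt7 (limma adjusted p = 0.00699) and -1.11 for Krt19 (limma adjusted p = 0.0326). Krt19 against 6 h was then -0.83 (limma adjusted p = 0.0568). When arrays were scaled to spike-in controls, Krt7 was -0.37 at 24 h (limma adjusted p = 0.121) and Krt19 -0.48 (limma adjusted p = 0.0473). The series matrix values gave -0.49 for Krt19. Control replicate 3 and 6 h replicate 3 stood highest in their groups for Krt7, Krt8 and Krt19. Without both arrays, a choice made after seeing the data, the 24 h changes were -0.70, 0.65 and -0.79, all called. Mesothelial cells are a known source of keratins 7 and 19. Among 9 tested epicardial and mesothelial markers 2 were higher and 3 lower at 24 h (1 and 3 with slide as a block, 3 and 2 with array medians, 2 and 0 with spike-ins). In the same order, 14% and 30.5%, 2.69% and 8.79%, 45% and 11%, and 32.7% and 3.45% of all probes were higher and lower. The summed relative signal of these markers was 12.5 to 13.4 at 24 h, against 12.7 to 14 in control. Upk1b and Msln weighed most in that sum and moved in opposite directions, so it does not describe the other markers. The mean log2 signal of Upk1b was 2.54 at 24 h and 2.07 in control (limma adjusted p = 6.11e-05). For Msln it was 2.34 and 2.77 (limma adjusted p = 0.00912). The part of other cell types in the keratin changes was not tested.

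**Figure D2:**
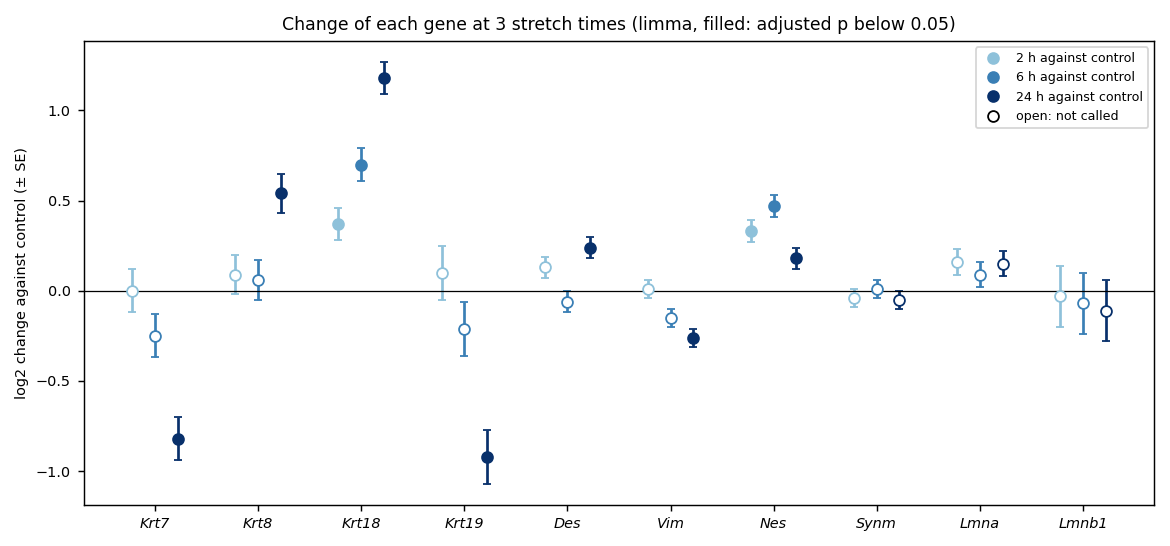
Log2 change against control (y axis, bars are SE from limma, n = 3 per group) of the brighter probe of each gene at 2, 6 and 24 h. Filled points are called at an adjusted p below 0.05, and the keratins split at 24 h between Krt18 and Krt8 above 0 and Krt7 and Krt19 below 0.

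Des encodes desmin, and its probe lies at rn4 chr9:74645149-74645208. Relative signals were 26.4, 27.7 and 27.9 in control, 32.2, 29.2 and 28.2 at 2 h, 25.3, 25.4 and 28.1 at 6 h, and 33.2, 31.5 and 31.9 at 24 h. The 24 h arrays all exceeded control, by 0.24 ± 0.06 (limma adjusted p = 0.0108), a 1.18-fold difference. The 2 h arrays also lay above control without overlap, but their change of 0.13 was not called (limma adjusted p = 0.258). At 6 h it was -0.06 (limma adjusted p = 0.573). The size of the 24 h change moved with the processing. It was 0.51 with array medians (limma adjusted p = 0.000109), 0.68 with spike-ins (limma adjusted p = 0.00451), 0.43 with normexp background and 0.39 with the series matrix values. The 24 h change was 0.09 with slide as a block (limma adjusted p = 0.629). At 6 h spike-in scaling gave 0.45 (limma adjusted p = 0.0467), of the other sign.

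Vim encodes vimentin, the type III filament of mesenchymal cells, and its probe lies at rn4 chr17:87851390-87851449. The relative signal was 24, 24.4 and 23.4 in control, 26, 23.9 and 22.7 at 2 h, 21.5, 21.5 and 21.6 at 6 h, and 19.5, 20.8 and 19.6 at 24 h. All 24 h arrays were below all control arrays. Vim fell by 0.26 ± 0.05 at 24 h (limma adjusted p = 0.00308), and the 6 h value of -0.15 was not called (limma adjusted p = 0.0869). The direction of the 24 h change depended on the scaling. It was 0.01 when arrays were scaled to their median (limma adjusted p = 0.903) and 0.19 with spike-in scaling (limma adjusted p = 0.444). With slide as a block it was -0.26 (limma adjusted p = 0.131), and normexp background gave -0.17 and the series matrix values -0.16, both called. Of 10 tested fibroblast markers, 8 were lower at 24 h, against 30.5% of all probes. With slide as a block 4 were lower, with array medians 3 and with spike-ins 0, against 8.79%, 11% and 3.45%. The summed relative signal of the 10 was 123 to 143 at 24 h, against 170 to 182 in control.

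Nes encodes nestin, a filament protein known from progenitor cells and developing muscle. Its brighter probe lies at rn4 chr2:180060869-180060928 and gave 0.676, 0.678 and 0.719 in control, 0.893, 0.837 and 0.872 at 2 h, 0.912, 0.939 and 1.02 at 6 h, and 0.831, 0.732 and 0.782 at 24 h. Its mean was highest at 6 h, although 6 h over 2 h was not called (0.14, limma adjusted p = 0.177), and at every time its arrays lay above control. The changes were 0.33 ± 0.06 at 2 h (limma adjusted p = 0.0131), 0.47 ± 0.06 at 6 h (limma adjusted p = 0.0016) and 0.18 ± 0.06 at 24 h (limma adjusted p = 0.0382), and 24 h was lower than 6 h (-0.29, limma adjusted p = 0.00775). The 2nd probe, at chr2:180060450-180060509, gave 0.25 at 2 h (limma adjusted p = 0.075), 0.36 at 6 h (limma adjusted p = 0.0121) and 0.05 at 24 h (limma adjusted p = 0.596). Among the changes against control and with this scaling, the 6 h change was thus the one called on both probes. On slide 1 alone the 2nd probe gave 0.29 at 6 h (limma adjusted p = 0.0749). Its step of 24 h over 6 h was -0.31 (limma adjusted p = 0.0157), which was lost without 24 h replicate 3 (-0.29, limma adjusted p = 0.0542). That step was not called for either probe with array medians (-0.14 and -0.16, limma adjusted p = 0.0983 and 0.151) or spike-ins (-0.35 and -0.37, limma adjusted p = 0.412 and 0.377). With slide as a block the 24 h change of the brighter probe was 0.04 (limma adjusted p = 0.839), against 0.45 with array medians and 0.62 with spike-ins, where the 2nd probe was called too (0.32 and 0.50).

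The 24 h call for Nes was lost without control replicate 1, control replicate 2, 24 h replicate 1 or 24 h replicate 3. Values were 0.13 to 0.22 over the 6 fits that left out 1 array, with limma adjusted p up to 0.135. Without the filter (limma adjusted p = 0.0823) or with only the arrays compared (limma adjusted p = 0.0662), Nes was not called at 24 h either. Its 2 h call was lost without control replicate 2 (0.31, limma adjusted p = 0.0504), with spike-ins (0.51, limma adjusted p = 0.301) and with only the arrays compared (adjusted p = 0.0567). At 6 h the brighter probe was called in every alternative tried, with changes of 0.42 to 0.97.

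Synm encodes synemin, which binds desmin and vimentin filaments. Its brighter probe, at rn4 chr1:122474228-122474287, gave relative signals of 0.915 to 0.933 at 2 h, 0.931 to 1 at 6 h and 0.865 to 0.976 at 24 h, against 0.923 to 0.972 in control. The groups overlapped at all times, and the change at 24 h was -0.05 (95% interval -0.17 to 0.07, limma adjusted p = 0.482). It was called and above 0 at 24 h with array medians (0.22, limma adjusted p = 0.0143) and at 6 h with spike-ins (0.52, limma adjusted p = 0.0271). The other probe was well above background on 1 array of 12 and was not tested.

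Lmna encodes lamins A and C, and its brighter probe lies at rn4 chr2:180597883-180597942. It gave 18.5, 15 and 16.6 at 2 h, 15.7, 16.2 and 15.7 at 6 h, and 17.1, 17.1 and 15.6 at 24 h, against 14.4, 15 and 15.4 in control. The changes of 0.16, 0.09 and 0.15 were not called, with limma adjusted p of 0.237, 0.446 and 0.111. The 24 h change was called with array medians (0.42, limma adjusted p = 0.000707), spike-ins (0.60, adjusted p = 0.0124), quantile normalization (0.20, adjusted p = 0.018), normexp background (0.25, adjusted p = 0.0101) and the series matrix values (0.21, adjusted p = 0.0252). The 2nd probe, placed at chr2:180595702-180595724, was called at 24 h, at 0.23 ± 0.06 (limma adjusted p = 0.0102), and gave 0.12 with slide as a block (limma adjusted p = 0.496). The probes thus gave the same direction but different calls. At 6 h both were called with spike-ins (0.60 and 0.62, limma adjusted p = 0.0144 and 0.0121). With array medians the 2nd probe was called at 6 h (0.23, limma adjusted p = 0.0302).

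Lmnb1 encodes lamin B1, a B-type lamin of the nuclear envelope. Its probe lies at rn4 chr18:52505697-52505756. The relative signal was 0.572, 0.692 and 0.717 at 24 h, against 0.848, 0.533 and 0.784 in control, where replicate 2 was low. The 24 h change of -0.11 was not called (95% interval -0.48 to 0.27, limma adjusted p = 0.634), and the wide interval allows a change in either direction. Among 18 tested cell cycle genes 3 were higher and 2 lower at 24 h, against 14% and 30.5% of all probes. Cenpf, a kinetochore protein, was at -0.37 (limma adjusted p = 0.00139). Mcm7, a subunit of the replicative helicase, was at 0.23 (limma adjusted p = 0.00885). The slide block gave 0 higher and 3 lower, against 2.69% and 8.79% of all probes. With array medians 13 and with spike-ins 9 were higher, against 45% and 32.7%, and 0 lower, against 11% and 3.45%.

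**Figure D3:**
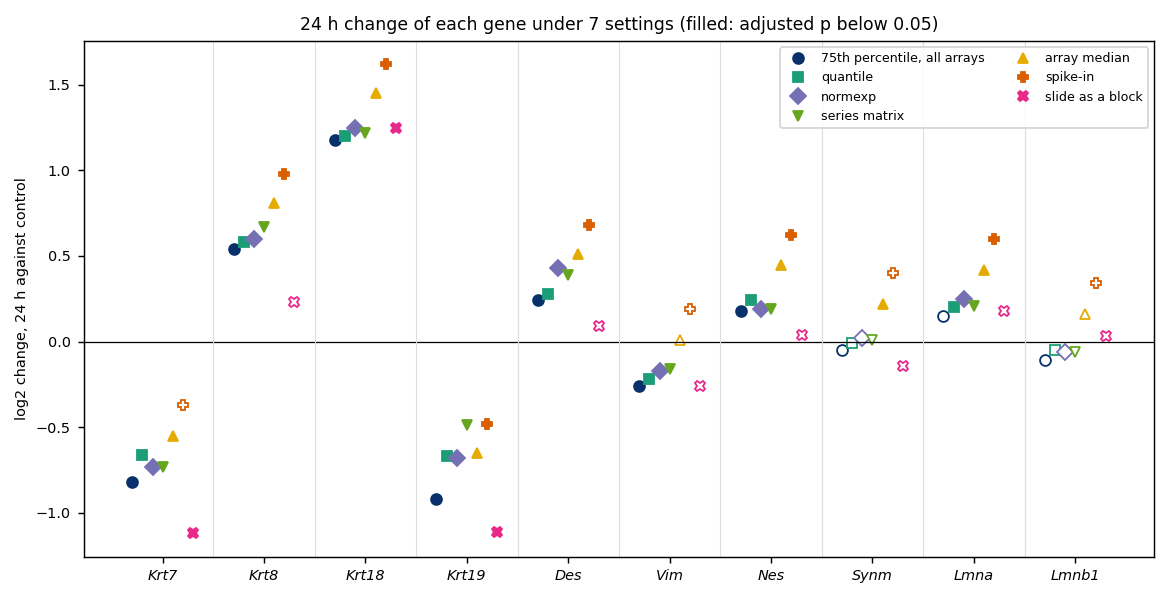
Log2 change of 24 h against control (y axis) for the brighter probe of each gene under 7 settings of scaling, background or slide. Filled symbols are called. Krt18 is above 0 and called in all 7, Krt8, Des, Nes and Vim are not called with slide as a block, Krt7 is not called with spike-in scaling, and Vim is above 0 and not called under array median and spike-in scaling.

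Genes that work with these filaments were read from lists chosen beside the 10 genes. Of 57 other intermediate filament genes 50 were on the array and 12 were tested. Krt24, a keratin, was the only one called at 24 h (0.67 ± 0.10, limma adjusted p = 0.000588), against 44.6% of all probes. With slide as a block it was not called (0.61, limma adjusted p = 0.0768). Of 9 desmosome and plakin genes 2 were higher and 3 lower at 24 h, against 14% and 30.5% of all probes. Pkp1, a desmosomal plaque protein, was higher by 0.70 (limma adjusted p = 4.83e-06), and Dsc2, a desmosomal cadherin, by 0.49 (limma adjusted p = 0.0297). Evpl, a plakin of cornifying epithelia, was lower (-0.89, limma adjusted p = 0.00616), its probe being well above background on 1 of 3 arrays at 24 h against 3 of 3 in control, as was the desmosomal cadherin gene Dsg2 (-0.39, limma adjusted p = 0.0367). Dsp, which anchors desmin at the intercalated disc and was picked for this role after its values were seen, was lower too (-0.24, limma adjusted p = 0.0381). Pkp1 was the 1 gene called with slide as a block (0.61, limma adjusted p = 0.00417), where 2.69% of all probes were higher and 8.79% lower. Dsg2 and Dsp were not called under quantile, array median or spike-in scaling, and Dsp was above 0 under the last pair (0.03 and 0.21). Evpl was not called under quantile (-0.43, limma adjusted p = 0.0973) or spike-in scaling (-0.44, limma adjusted p = 0.066). With array medians Evpl was called (-0.62, limma adjusted p = 0.0185).

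Of 12 genes for chaperones and turnover of desmin and other filaments 6 were higher and 0 lower at 24 h, against 14% and 30.5% of all probes, with a median change of 0.18. Quantile, array median and spike-in scaling gave 7, 11 and 9 higher and 0 lower, against 21.1%, 45% and 32.7% of all probes higher. Under the slide block 2 were higher, Flnc (0.46, limma adjusted p = 0.0172) and Bag3 (0.61, adjusted p = 0.0385), against 2.69% of all probes. Flnc, a filamin of the Z-disc, changed by 0.51 ± 0.05 (limma adjusted p = 3.98e-05), Bag3, a co-chaperone of selective autophagy, by 0.50 ± 0.09 (limma adjusted p = 0.00119) and Hspb8, its small heat-shock partner, by 0.43 ± 0.06 (limma adjusted p = 0.00037). Hspb3, a small heat-shock gene of muscle, changed by 0.34 (limma adjusted p = 0.00134). At 2 h 4 of the 12 were higher, against 2.39% of all probes, and at 6 h 4, against 4.02%. With slide as a block 2 were higher at each time, against 1.93% and 2.33% of all probes. Lamina and LINC complex genes link the nuclear envelope to the cytoskeleton. Of 16 such genes 2 were higher and 4 lower at 24 h, against 14% and 30.5% of all probes. Lower were Sun1 (-0.48, limma adjusted p = 0.000838) and Syne2 (-0.42, limma adjusted p = 0.0208). Sun2 (-0.36, limma adjusted p = 0.00179) and Tmpo (-0.36, limma adjusted p = 0.00102) were lower too. With array medians or spike-ins 8 of the 16 were higher, against 45% and 32.7% of all probes, and 0 lower, against 11% and 3.45%. With slide as a block 0 were higher and 2 lower, against 2.69% and 8.79% of all probes. The 2 were Sun1 (-0.61, limma adjusted p = 0.0263) and Tmpo (-0.45, adjusted p = 0.0335). The SUN proteins and the nesprin encoded by Syne2 span the envelope, and Tmpo encodes lamin-binding proteins.

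Markers of other cells also moved at 24 h, where 14% of all probes were higher and 30.5% lower. All 10 macrophage and leukocyte markers were lower, with a median change of -1.44 and a summed relative signal of 5.85 to 6.8, against 16.8 to 16.9 in control. Of 11 cardiomyocyte markers 10 were lower and Myl2, a ventricular myosin light chain and the exception, named after its value was seen, was higher at 0.32 (limma adjusted p = 0.000624). With slide as a block Myl2 was not called (0.28, limma adjusted p = 0.0936). Of 9 endothelial markers 1 was higher and 6 lower, of 10 smooth muscle and pericyte markers 1 was higher and 7 lower, and of 4 Schwann and neural markers 0 were higher and 2 lower. Under the slide block, 9 macrophage, 1 cardiomyocyte, 4 endothelial, 5 smooth muscle and 0 Schwann markers were lower, against 8.79% of all probes. There 1 endothelial marker was higher, against 2.69%. With spike-in scaling 9 macrophage and 2 smooth muscle markers were lower and 0 of the other lists here, against 3.45%. Higher with spike-ins were 1 cardiomyocyte, 1 endothelial and 2 smooth muscle markers, against 32.7%. The part of these shifts in the filament genes was not tested.

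**Figure D4:**
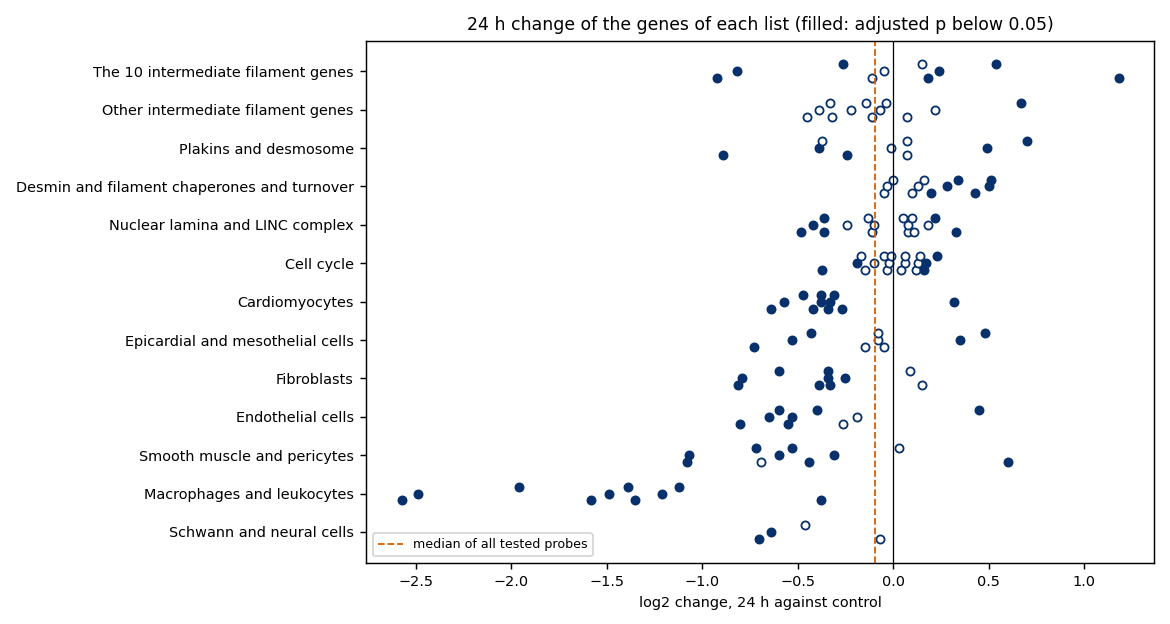
Log2 change of 24 h against control (x axis) for each tested gene of each list (1 line per list, 1 point per gene, filled where called). The dashed line marks the median of all tested probes, -0.095. The called genes of the list of filament chaperones and turnover lie above 0, and the macrophage genes all lie below it.

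The genes whose signals followed the members most closely over the 12 arrays, out of 11752 genes, are given as a description. Krt18 was closest to Wdr4 (Pearson r = 0.987) and Phf5a (r = 0.984), and Krt19 to Prelp (r = 0.975) and Lca5 (r = 0.973). Krt7 was closest to Ltbp4 (r = 0.973) and Arsl (r = 0.97), and Krt8 to Rangap1 (r = 0.954) and Cd151 (r = 0.953). Des was closest to Ccdc124 (r = 0.941) and Bag1 (r = 0.935), Vim to Eif2s3 (r = 0.964) and Impa2 (r = 0.958), and Nes to Hbb (r = 0.95) and Dbn1 (r = 0.945). The highest values were lower for Synm (Tasp1, r = 0.801, and Zfp174, r = 0.767), Lmna (Zfp746, r = 0.904, and Eef1d, r = 0.895) and Lmnb1 (St3gal4, r = 0.819, and Tmem14a, r = 0.814). Krt7 and Krt19 correlated at 0.95 with each other, over arrays that share their group differences.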

How the data were processed

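Total RNA from 12 cultures was read on one-colour Agilent arrays. The deposited scanner files give a background-subtracted processed intensity, linear and unscaled between arrays, and 0 or 1 flags for each spot (other values), per the file headers. Those headers name Agilent Feature Extraction 11.0.1.1, whereas the submitters' processing notes name 10.7.3.1. The deposited series matrix holds an intensity for 28902 probes with unknown scaling between arrays and served only as an alternative.

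Outlier-flagged spots (224 to 359 per array) were left out, spots of a probe were averaged on the log2 scale, and the 75th percentile of each array (1137.52 to 1671.66) was subtracted. Probes well above background on all 3 arrays of a group were kept. A model with 4 group means was fitted with limma 3.58.1 in R 4.3.3 to all 18997 kept probes, with two-sided tests and Benjamini-Hochberg adjustment over all of them within each of 6 comparisons. The number of arrays limits the precision. The procedure was also run on simulated arrays with independent noise, few changed probes and no slide effect. That run does not bear on the slide or the scaling. The brighter probe of a gene represents it in counts. All 10 members are named, with up to 4 called genes of each list with the largest 24 h change and the 2 genes most correlated with a member, with examples given from the cell cycle and cell type lists. The members and lists were chosen with earlier results of these data known. The labels name no pairing by replicate number. Over 18 same-numbered pairs the correlation of deviations ranged from -0.104 to 0.078, and over 36 other pairs from -0.181 to 0.192. With 3 arrays per group these values cannot show whether cultures were paired. Alternatives covered scaling, background, the filter, arrays left out, slide and the replicate block; for the gene lists, slide and scaling were added after the data were seen.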

Additional observations from a re-analysis of the deposited data

Results flagged for a closer look

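The following genes differed between stretch times, by the limma contrast of the times themselves (adjusted p below 0.05, 3 arrays per group). Krt18 was higher at 6 h than at 2 h (0.33) and higher at 24 h than at 6 h (0.48) and 2 h (0.81). Krt8 was higher at 24 h than at 6 h (0.48) and 2 h (0.45). Krt7 was lower at 24 h than at 6 h (-0.57) and 2 h (-0.81), and so was Krt19 (-0.71 and -1.02). Des was higher at 24 h than at 6 h (0.30), and Vim was lower at 24 h than at 2 h (-0.27). Both Nes probes were lower at 24 h than at 6 h (-0.29 and -0.31).

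Because all 24 h arrays and 1 array of 6 h lie on slide 2, these differences partly coincide with the slide. With slide as a block 24 h over 6 h was 0.27 for Krt8 (limma adjusted p = 0.319), -0.83 for Krt19 (limma adjusted p = 0.0568) and 0.20 for Des (limma adjusted p = 0.21). Against 2 h it was 0.14 for Krt8 (limma adjusted p = 0.659) and -0.28 for Vim (limma adjusted p = 0.123). Scaling mattered as well. Vim at 24 h against 2 h was -0.05 with array medians (limma adjusted p = 0.497) and -0.01 with spike-ins (limma adjusted p = 0.986). Neither Nes probe was called at 24 h against 6 h with array medians (limma adjusted p = 0.0983 and 0.151) or spike-ins (limma adjusted p = 0.412 and 0.377), and 24 h against 6 h with spike-ins was 0.24 for Des (limma adjusted p = 0.733), 0.42 for Krt8 (limma adjusted p = 0.262) and 0.42 for Krt18 (limma adjusted p = 0.246).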

How the results depend on the processing

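Of 1254 values of the members under alternatives, 1165 stayed on the same side of the threshold. Of these, 120 were uncalled both ways and did not keep the sign, which includes values of 0 after rounding. Another 60 lost the call, 24 gained it and 5 reversed with a call in either fit. Reversed were Vim at 24 h against control with array median (0.01) and spike-in scaling (0.19), Synm at 24 h with array median scaling against control (0.22) and 2 h (0.22), and Des at 6 h with spike-in scaling (0.45). The cause was not tested. The share of called probes that were lower at 24 h against control was 68.5% as reported, 46.9% with quantile normalization, 19.7% with array medians and 9.6% with spike-ins, and the median log2 change of all probes was then 0.17 with array medians and 0.35 with spike-ins. Lmna was called at 24 h with quantile normalization (0.20), normexp (0.25), the series matrix (0.21), array medians (0.42) and spike-ins (0.60).

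Counts of called probes and members, beside the counts over all arrays, moved as follows. For 2 h against control (1355 probes, 2 members) they were 226 and 0 with spike-ins, 718 probes with normexp, 530 and 1 without the filter, 270 and 0 with only the arrays compared, 681 and 1 on slide 1, and 438 and 1 without control array 3 and 6 h array 3, a choice made after seeing the data. For 6 h (2665, 2) they were 10188 and 6 with spike-ins, 1321 without the filter, 1731 with slide as a block, 1229 on slide 1 and 786 without those 2 arrays. For 6 h against control and 6 h against 2 h, the slide block is the same fit as leaving out 6 h replicate 3. For 24 h (8464, 7) the counts were 2180 and 3 with slide as a block. For 6 h against 2 h (1518, 1) they were 874 with spike-ins, 485 with normexp, 273 and 0 without the filter, 82 and 0 with only the arrays compared, 499 and 0 with slide as a block, 115 and 0 on slide 1, and 141 and 0 without those 2 arrays. For 24 h against 6 h (4102, 6) they were 6642 with array medians, 1241 and 2 with spike-ins, 1111 and 3 with slide as a block and 110 and 0 on slide 2. For 24 h against 2 h (8681, 5) they were 3180 with spike-ins and 1823 and 3 with slide as a block.

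Leaving out 1 array gave 576 to 985 probes and 0 to 2 members at 2 h, 1168 to 2292 probes at 6 h, 6891 to 7930 probes and 6 to 7 members at 24 h, 179 to 1296 probes and 0 to 1 members for 6 h against 2 h, 2564 to 3629 probes and 5 to 6 members for 24 h against 6 h, and 6914 to 8137 probes and 5 to 6 members for 24 h against 2 h. Probe counts moved by over 1.5 times without any of control replicates 1 to 3 or 2 h replicates 1 and 3 at 2 h (895, 576, 670, 802 and 843), without control replicates 2 and 3 or 6 h replicates 1 and 3 at 6 h (1552, 1543, 1168 and 1731), without 2 h replicates 1 and 2 or any 6 h replicate for 6 h against 2 h (491, 835, 179, 717 and 499), and without 6 h replicate 2 for 24 h against 6 h (2564). With the replicate number as a block, although the labels name no pairing, 1005, 2302, 8094, 1053, 3724 and 8227 probes were called in the comparisons in the order above, with 2, 2, 7, 1, 6 and 5 members.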
